A study of Zea mays with 16 samples.

Results

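The maize array held 4 probes for *MuDR*, the element that drives the Mutator transposon family, and their signal was followed in silenced (*Mu killer*) and *Mu* active anthers of 2 lengths, 2 mm and 1 mm. They were chosen by name, as the probes whose name in the scanner output contains MUDR, and are 4 of 42034 maize probes. They are 12367:MUDR-TIRA (A_92_P012404), named for the terminal inverted repeat beside *mudrA*, 20805:MUDRA (A_92_P031891) and 9258:MUDRA-21 (A_92_P019862), named for *mudrA*, and 290:MUDRB (A_92_P034510), named for *mudrB*. They are written below without the leading number of the array design, and the last 3 are called the coding probes. The files used hold no sequence of these probes. The choice did not use any measured value.

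*MuDR* is the autonomous element of the family, which mobilizes itself and the other *Mu* elements. The enzyme that cuts and moves the elements, the transposase, is the product of *mudrA*, while the product of the second gene, *mudrB*, has no settled role. Transcription of each gene starts in the terminal inverted repeat at its own end of the element and runs toward the other gene. *Mu killer* is a rearranged copy of part of *MuDR* with TIRA and *mudrA* sequence, which silences the element through RNA. Transcripts related to *MuDR* can also come from *hMuDR*, immobile relatives found throughout maize. Which of these transcripts each probe reads was not tested.

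The groups were *Mu killer* at 2 mm, *Mu* active at 2 mm, *Mu killer* at 1 mm and *Mu* active at 1 mm, with 4 samples each. *Mu killer* plants were grown from bronze kernels and *Mu* active siblings from spotted kernels of ears segregating for the silencing locus, after crosses of a high copy Mutator line carrying *bz2-mu2* with a *Mu killer* line, and each sample pooled anthers. The scan year in the file headers precedes the season in which the methods say the plants were grown, which was not resolved, so this description of the plants rests on the labels and methods. By the study's methods, 1 mm anthers are before meiosis and 2 mm anthers are in late prophase I. Kernel phenotype and a test of genomic DNA for *Mu killer* defined the lines, not a measurement of *MuDR* transcript. In the series description the silenced line is named inactive. Each of 8 arrays held 1 sample labeled with Cy3 and 1 labeled with Cy5. The labels number the replicates 1 to 4, and the study's methods describe them as biological.

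All arrays of 1 stage were on the same slide, so stage and slide cannot be told apart. By the labels, the Cy3 and the Cy5 sample of an array belong to the same line, which a dye swap between lines does not allow. Both also carry the same replicate number and sample code, so the replicate number stands for the array. The line of the Cy3 label was taken as it stands and the Cy5 sample was assigned to the other one, which puts *Mu killer* in Cy3 on the arrays of replicates 1 and 2 and in Cy5 on those of replicates 3 and 4. The opposite reading exchanges the lines in every sample. It keeps the size of each difference between the lines, turns its sign, and exchanges the stage changes of the lines. The stage change over both lines does not depend on it. Each sample had between 32697 and 37898 probes well above background, and 28295 were so in all 16. Across these 28295, the ratio of Cy5 over Cy3 on the 1 mm replicate 1 array correlated between -0.211 and 0.093 with the 3 arrays of its own dye orientation and between 0.129 and 0.212 with the 4 of the other. On average each of the other 7 arrays correlated higher with its own orientation. Fitted differences between the lines are therefore also given without the 1 mm replicate 1 array. The correlations of the ratios between the lines are not, and hold this array as assigned. Of 25 anther, meiotic and leaf marker symbols looked up, the scanner output names 1, AM1, which acts at entry into meiosis. Of its 3 probes, 2 were well above background in all 16 samples and the other in 5 of 8 samples at 2 mm and 7 of 8 at 1 mm.

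All 4 *MuDR* probes were well above background in all 16 samples, in both lines and at both stages, and none was saturated. The signal of MUDR-TIRA was between 16 and 105.1 times its local background at 2 mm and between 8.19 and 59.4 times at 1 mm. For the coding probes, the lowest of these ratios was 3.81, for MUDRA in *Mu killer* at 2 mm. The levels below are log2 intensities after background correction and normalization, in which 1 unit is a doubling. They are relative to the array and are not set against each other between probes.

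MUDR-TIRA was the 1 of the 4 probes that passed the test for stage, which 16.2% of all probes passed, and it was higher at 2 mm in both lines. Each sample held whole anthers, in which a change in the share of cells that carry a transcript and a change in its amount per cell cannot be told apart. Its level in *Mu killer* was 10.90, 10.93, 10.63 and 10.60 in replicates 1 to 4 at 2 mm, against 9.12, 10.01, 9.03 and 8.80 at 1 mm. In *Mu* active it was 11.34, 12.44, 11.22 and 11.90 at 2 mm, against 9.75, 9.84, 10.80 and 8.88 at 1 mm. Within each line, all 4 samples at 2 mm lay above all 4 at 1 mm. Such a separation was found for 9.51% of the probes in *Mu killer* and 5.37% in *Mu* active. Over both lines the stages overlapped by 1 sample, since *Mu* active replicate 3 at 1 mm lay above 2 *Mu killer* samples at 2 mm. The mean of both colors of an array was between 10.93 and 11.68 at 2 mm and between 8.84 and 9.93 at 1 mm, a separation of the 4 arrays that 11.1% of the probes showed.

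**Figure D1:**
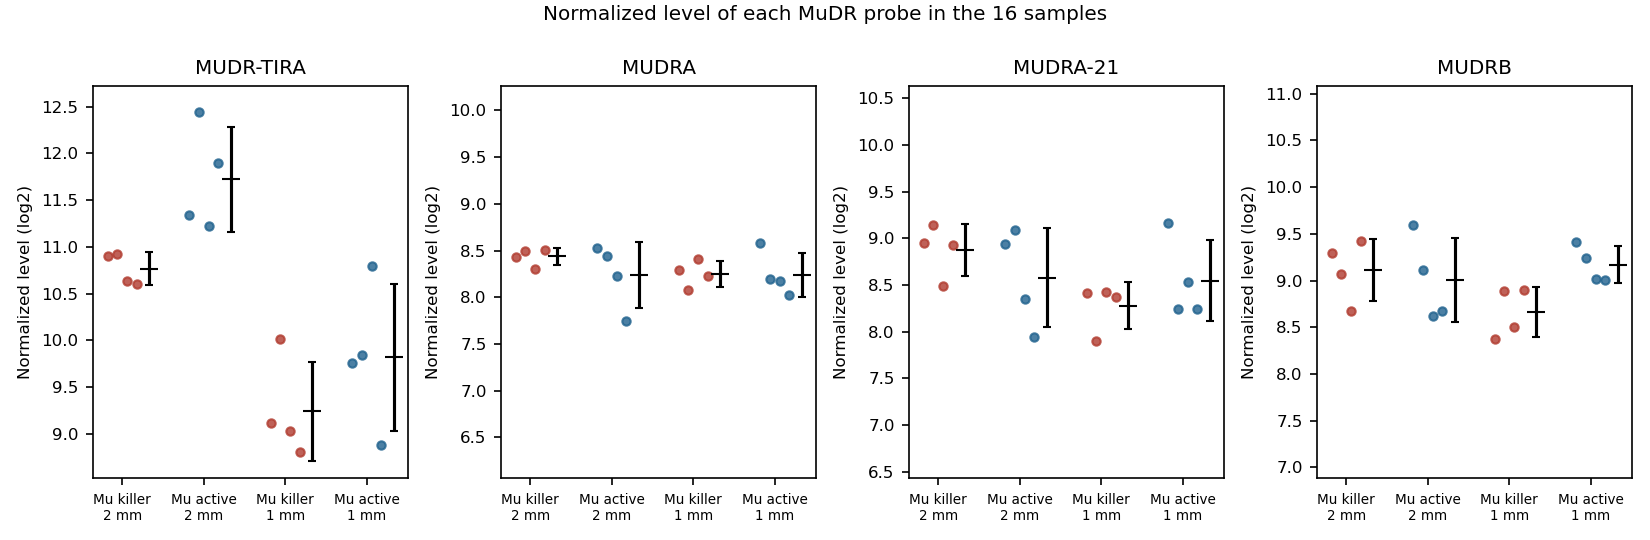
Normalized log2 level of each probe in the 16 samples, with replicates 1 to 4 from left to right in each group and the mean ± SD as a black bar (n = 4). Each panel has its own axis of the same span, and in MUDR-TIRA all 2 mm samples lie above the 1 mm samples of the same line.

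The mean level of MUDR-TIRA was 11.25 ± 0.640 at 2 mm and 9.53 ± 0.693 at 1 mm (SD, n = 8 each). The change, 2 mm minus 1 mm, was 1.72 on the log2 scale (SE 0.313, 95% interval 1.04 to 2.39), a 3.29-fold higher level, with an adjusted p of 0.0033 from limma. Of the 41979 probes tested, 7.55% were called as higher and 8.68% as lower at 2 mm, so a call alone was common. The size was less so, since 0.615% of the probes had a higher change. MUDR-TIRA remained called without any 1 of the 8 arrays, with changes between 1.49 and 1.85. It was not called from the Cy3 samples alone (1.54, adjusted p = 0.0757 from limma), or without normalization between arrays (1.00, adjusted p = 1 from limma), where 1 probe of the whole array was called and the median of all probes moved by -0.15. Relative to that median its change was 1.16.

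The stage change of MUDR-TIRA was called in each line as assigned. In *Mu killer* it was 1.53 (SE 0.385, adjusted p = 0.0265 from limma), and in *Mu* active 1.91 (SE 0.385, adjusted p = 0.0117 from limma). Of all probes, 10.6% were called in *Mu killer*, 5.58% as higher, and 6.84% in *Mu* active, 2.82% as higher. The stage changes of the lines differed by -0.38 (SE 0.466, 95% interval -1.495 to 0.732), which is not a detectable difference with 4 arrays a stage. This value was -0.79 without the 1 mm replicate 3 array, -0.47 without the 1 mm replicate 1 array and -0.09 without the 2 mm replicate 2 array. The call in *Mu killer* was lost without the 1 mm replicate 1 array (1.45, adjusted p = 0.0979), the 2 mm replicate 1 array (1.49, adjusted p = 0.0780) and the 2 mm replicate 4 array (1.56, adjusted p = 0.0655), all from limma. The call in *Mu* active was made without each array in turn.

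None of the 3 coding probes passed the test for stage. MUDRA, for the transposase gene, had a level in *Mu killer* of 8.43, 8.50, 8.31 and 8.51 at 2 mm and 8.29, 8.08, 8.42 and 8.22 at 1 mm. In *Mu* active it was 8.53, 8.44, 8.23 and 7.75 at 2 mm and 8.58, 8.19, 8.17 and 8.02 at 1 mm. The stages overlapped in both lines, and the change over both lines was 0.09 (SE 0.110, 95% interval -0.15 to 0.33, adjusted p = 0.631 from limma). This interval leaves out a change of the size found for MUDR-TIRA.

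MUDRA-21, the other probe named for *mudrA*, was at 8.95, 9.14, 8.49 and 8.93 in *Mu killer* at 2 mm and at 8.41, 7.90, 8.43 and 8.37 at 1 mm. These groups did not overlap, as was found for 9.51% of all probes with 2 mm higher in *Mu killer*. The change of 0.60 was not called (SE 0.231, adjusted p = 0.118 from limma). In *Mu* active the levels were 8.94, 9.09, 8.35 and 7.94 at 2 mm and 9.16, 8.25, 8.54 and 8.24 at 1 mm, which overlapped, with a change of 0.03 (SE 0.231). Over both lines the change was 0.32 (SE 0.188, 95% interval -0.09 to 0.72, adjusted p = 0.285 from limma).

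MUDRB, for the gene that faces *mudrA*, was at 9.30, 9.07, 8.67 and 9.42 in *Mu killer* at 2 mm and at 8.37, 8.89, 8.50 and 8.90 at 1 mm. In *Mu* active it was at 9.60, 9.12, 8.63 and 8.68 at 2 mm and at 9.42, 9.24, 9.01 and 9.004 at 1 mm. The stages overlapped in both lines, with the lowest *Mu* active levels at 2 mm and the lowest *Mu killer* levels at 1 mm. The change was 0.45 in *Mu killer* (SE 0.203, adjusted p = 0.177 from limma), -0.17 in *Mu* active (SE 0.203) and 0.14 over both lines (SE 0.165, 95% interval -0.21 to 0.50, adjusted p = 0.613 from limma). Without the 2 mm replicate 3 array, the changes in *Mu killer* of MUDRB (0.65, adjusted p = 0.0403) and of MUDRA-21 (0.79, adjusted p = 0.0376) passed the test in limma. Calls rose across the whole array in that setting, to 6518 probes in *Mu killer* against 4443 with all arrays, so these 2 calls are not particular to *MuDR*. Over both lines MUDRB was 0.01 without the 2 mm replicate 1 array and 0.28 without the 2 mm replicate 3 array.

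Whether MUDR-TIRA changed more than the coding probes was tested within arrays, where a shift common to a whole array cancels in the difference of 2 probes. This test was chosen after the values were seen. The stage change of MUDR-TIRA exceeded that of MUDRA by 1.62, that of MUDRA-21 by 1.40 and that of MUDRB by 1.57 on the log2 scale. For each of the 3, all 4 arrays at 2 mm lay above all 4 at 1 mm (exact permutation test, two-sided p = 0.0286, the smallest that 4 against 4 arrays allow, not adjusted for the 3 tests). The 3 tests share the values of MUDR-TIRA, whose array means were already separate by stage. Those of MUDRA lay between 8.13 and 8.48 at 2 mm and between 8.12 and 8.43 at 1 mm. The outcome was thus largely set by MUDR-TIRA, and the tests add little to its own stage change. For MUDRA-21 the p was 0.0571 in the exact permutation test without any 1 of the 2 mm arrays. Without normalization between arrays the differences were 1.40 for MUDRA, 1.21 for MUDRA-21 and 1.44 for MUDRB, with an exact permutation p of 0.0571 for MUDRA-21 and 0.0286 for the others.

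**Figure D2:**
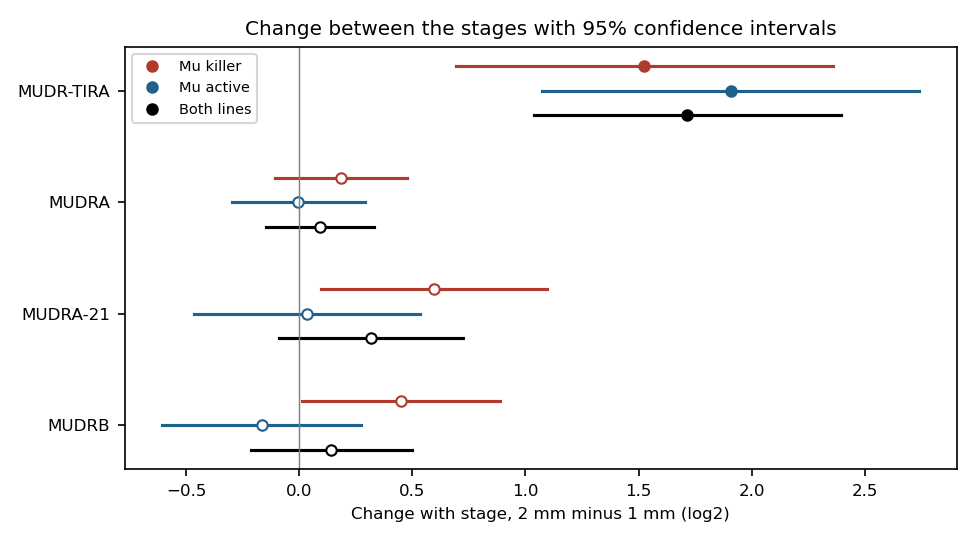
Change in log2 level, 2 mm minus 1 mm, of each probe in each line as assigned and over both lines, with the 95% interval of the fit. Filled points passed an adjusted p of 0.05, which holds for MUDR-TIRA at 1.53, 1.91 and 1.72, and open points did not.

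The lines were compared within each array, as the log2 of *Mu killer* over *Mu* active. All signs here follow the line assignment given above, and the opposite reading turns each of them. For MUDR-TIRA the ratio was -0.43, -1.51, -0.59 and -1.30 on the arrays of replicates 1 to 4 at 2 mm, and -0.64, 0.17, -1.77 and -0.07 at 1 mm. It was thus lower in *Mu killer* on 7 of 8 arrays, as were 9% of all probes on at least 7, and on all 4 at 2 mm, as were 10.1% of all probes. The mean was -0.96 ± 0.527 at 2 mm and -0.58 ± 0.864 at 1 mm (SD, n = 4 each). Neither passed the test (adjusted p = 0.385 and 0.853 from limma, unadjusted p = 0.0241 and 0.126), and on the whole array 2 probes passed at each stage, 0.00476%. Without the 2 mm replicate 3 array 3839 probes passed at 2 mm, but none of the 4 *MuDR* probes (adjusted p = 0.113 for MUDR-TIRA from limma). The coding probes were then higher in *Mu killer*, by 0.47 for MUDRA-21, 0.34 for MUDRA and 0.23 for MUDRB (adjusted p = 0.0628, 0.0711 and 0.459 from limma). Without the 1 mm replicate 1 array the 1 mm value was -0.49, and without the 1 mm replicate 3 array it was -0.17.

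MUDR-TIRA varied more between samples than most probes. Its residual SD in level from the stage fit was 0.585, larger than that of 92.7% of all probes tested and of 90.5% of the 28255 that were well above background in every sample. MUDRA, MUDRA-21 and MUDRB had residual SDs of 0.196, 0.347 and 0.303, against a median of 0.206 over all probes tested.

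The ratios of the coding probes lay between -1.04 and 0.99 over the 8 arrays, and those of MUDR-TIRA between -1.77 and 0.17. For MUDRA the ratio was -0.10, 0.06, 0.07 and 0.76 at 2 mm and -0.29, -0.11, 0.24 and 0.20 at 1 mm. For MUDRA-21 it was 0.00, 0.05, 0.14 and 0.99 at 2 mm and -0.75, -0.35, -0.11 and 0.13 at 1 mm. For MUDRB it was -0.30, -0.05, 0.05 and 0.75 at 2 mm and -1.04, -0.35, -0.52 and -0.10 at 1 mm. The 2 mm replicate 4 array held the highest ratio of all 3 probes. MUDRB was lower in *Mu killer* on all 4 arrays at 1 mm, as were 6.74% of all probes, with a mean of -0.50 ± 0.398 (SD, n = 4). It was not called (adjusted p = 0.853, unadjusted p = 0.0165 from limma), and 1.51% of all probes had a smaller p. Its value was -0.38 without the 1 mm replicate 1 array (unadjusted p = 0.0799 from limma). The other fitted differences of the coding probes were between -0.27 and 0.30, and none was called. Without the 1 mm replicate 1 array those at 1 mm were 0.045 for MUDRA and -0.18 for MUDRA-21.

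The ratios of MUDRA-21 and MUDRB were higher at 2 mm than at 1 mm by 0.56 (SE 0.198, unadjusted p = 0.0261 in limma) and 0.62 (SE 0.224, unadjusted p = 0.0299 in limma). Adjusted over all probes, both p-values were 0.9999, and 0% of the probes passed, with 842 below an unadjusted p of 0.05. Without the 1 mm replicate 1 array these values were 0.48 and 0.50. With median centering of the arrays, used instead of loess, the fit turned the sign of all 3 coding probes at 2 mm, to -0.058 for MUDRA, -0.035 for MUDRA-21 and -0.27 for MUDRB, and of MUDRA at 1 mm, to -0.18. Each *MuDR* probe was then lower in *Mu killer* at both stages. MUDR-TIRA was at -1.32 at 2 mm and -0.84 at 1 mm. At 1 mm MUDRA-21 was at -0.47 and MUDRB at -0.78 (unadjusted p = 0.0013 and 0.00074 from limma). None of the *MuDR* probes was called in this setting, with adjusted p between 0.4045 and 0.8113 from limma. Median centering also moved the median of the 28255 probes well above background in every sample, to -0.16 at 2 mm and -0.12 at 1 mm.

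**Figure D3:**
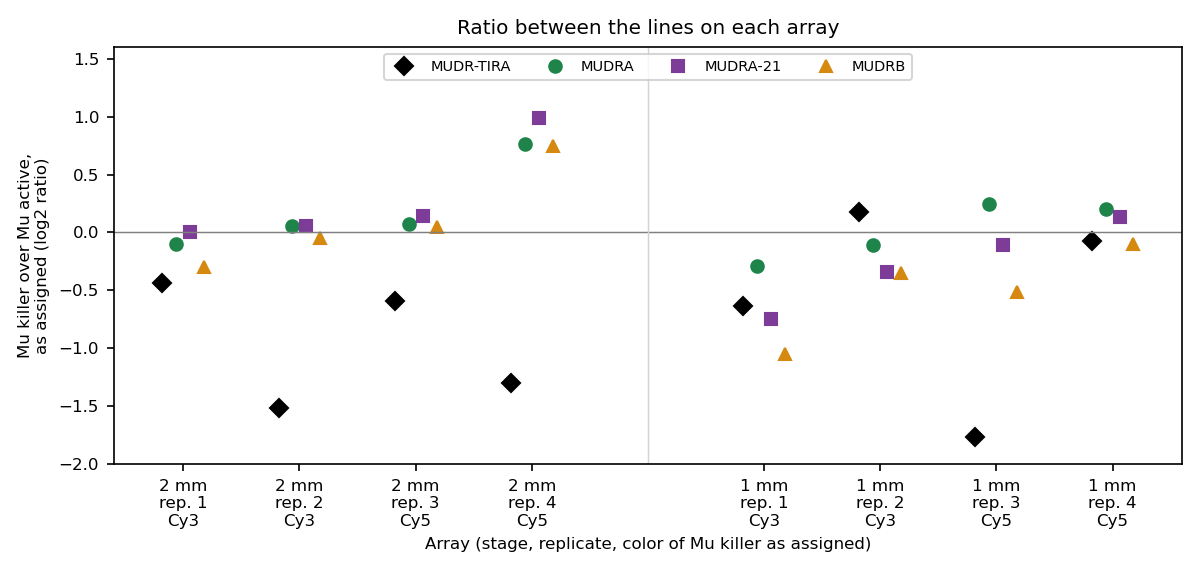
Log2 of *Mu killer* over *Mu* active, as assigned, for each probe on each of the 8 arrays, with the color that *Mu killer* carried below each array. MUDR-TIRA lies below all 3 coding probes on each 2 mm array and its ratio minus theirs is between -2.01 and 0.52 at 1 mm.

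Ratios of different probes can be compared within an array, so the repeat probe was set against each coding probe there. The ratio of MUDR-TIRA minus that of MUDRA was -0.34, -1.57, -0.66 and -2.06 at 2 mm and -0.35, 0.28, -2.01 and -0.27 at 1 mm. It was negative on 7 of 8 arrays, with a mean of -0.87 ± 0.886 (SD, n = 8, exact sign-flip permutation test, two-sided p = 0.0234). Minus MUDRA-21 the mean was -0.78 ± 0.969 with 6 of 8 negative (SD, n = 8, exact permutation p = 0.0625), and minus MUDRB it was -0.57 ± 0.937 with 5 of 8 negative (SD, n = 8, exact permutation p = 0.141). The p-values of these 3 tests are not adjusted, and the smallest that 8 arrays allow is 0.00781.

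At 2 mm the difference was negative on all 4 arrays for each coding probe, with means of -1.16 ± 0.795 against MUDRA, -1.25 ± 0.836 against MUDRA-21 and -1.07 ± 0.850 against MUDRB (SD, n = 4 each). The exact permutation p was 0.125 for each, the smallest that 4 arrays allow. At 1 mm the means were -0.59 ± 0.990, -0.31 ± 0.948 and -0.07 ± 0.815 against the same probes (SD, n = 4 each), with negative values on 3, 2 and 1 of the 4 arrays. The difference from MUDRA kept an exact permutation p between 0.0156 and 0.0469 without each array in turn, with means between -1.04 and -0.70, and was -0.95 without the 1 mm replicate 1 array. The difference from MUDRA-21 reached a p of 0.0312 in the exact permutation test without the 1 mm replicate 2 array (-0.97). The difference from MUDRB was -0.36 without the 2 mm replicate 4 array (exact permutation p = 0.281). Without the 1 mm replicate 1 array the differences from MUDRA-21 and MUDRB were -0.91 and -0.71. The opposite line assignment turns the sign of every value and leaves each p.

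Across the 16 samples, the probes named for *mudrA* went together and MUDR-TIRA did not go with them. With the mean of each stage subtracted, Pearson's r was 0.886 between MUDRA and MUDRA-21 (Spearman's rho 0.841), 0.581 between MUDRA-21 and MUDRB (rho 0.568) and 0.453 between MUDRA and MUDRB (rho 0.444). The last was 0.697 without normalization between arrays and 0.637 with processed signals scaled to the 75th percentile. With MUDR-TIRA, r was -0.228 for MUDRA, -0.022 for MUDRA-21 and 0.151 for MUDRB. These are descriptions over 16 samples, in which both samples of an array share the array and all samples of a stage share the slide. No dye term was subtracted from these levels.

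The link between the *mudrA* probes held within each stage, with r of 0.924 (rho 0.643) over the 8 samples at 2 mm and 0.833 (rho 0.738) over the 8 at 1 mm. That of MUDRA with MUDRB was 0.710 at 2 mm and 0.071 at 1 mm. Without the 2 samples farthest from the median of the first probe named, r was 0.779 for MUDRA with MUDRA-21, 0.404 for MUDRA-21 with MUDRB and 0.210 for MUDRA with MUDRB. Among the 28254 other probes well above background in every sample, MUDRA was the 6th most like MUDRA-21, and MUDRA-21 was the 75th most like MUDRA. For MUDR-TIRA, between 32.7% and 71.2% of these probes were more like it than a coding probe was.

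**Figure D4:**
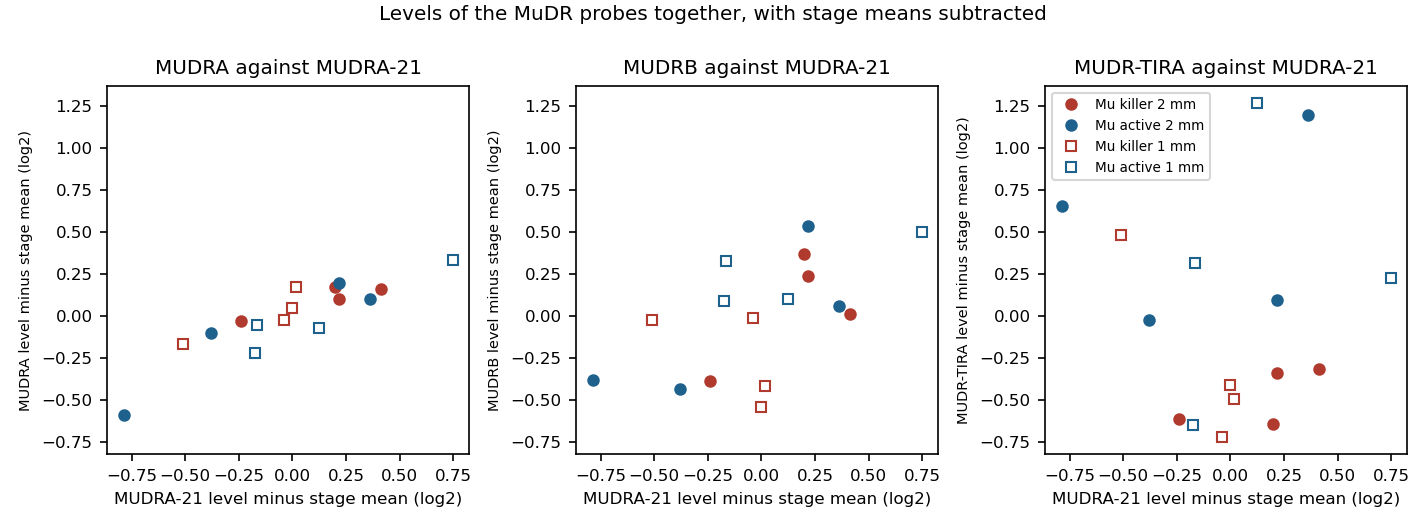
Levels of MUDRA, MUDRB and MUDR-TIRA against MUDRA-21 in the 16 samples, each in log2 units with the mean of its stage subtracted. The points of MUDRA lie along a line (r = 0.886), those of MUDRB scatter more (r = 0.581), and those of MUDR-TIRA show no trend (r = -0.022).

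In the ratios between the lines over the 8 arrays, r was 0.920 for MUDRA with MUDRA-21, 0.842 for MUDRA with MUDRB and 0.966 for MUDRA-21 with MUDRB, and between -0.462 and -0.191 for MUDR-TIRA with the coding probes. Without the 2 arrays farthest from the median, the first 3 were 0.446, 0.004 and 0.720, so that much of the relation among the coding probes rested on those arrays. For both MUDRA and MUDRA-21 they were the 2 mm replicate 4 array and the 1 mm replicate 1 array. The latter is the array that correlated higher with the other dye orientation. The dye term of the fit, Cy5 over Cy3, was 0.21 for MUDRA (SE 0.0773), 0.27 for MUDRA-21 (SE 0.0988) and 0.24 for MUDRB (SE 0.112), and -0.16 for MUDR-TIRA (SE 0.233). None of these was called in limma, but neither was any other probe (0% of 41979), so the lack of a call does not show that dye had no effect. The median size over all probes was 0.07. Larger dye terms than those of MUDRA, MUDRA-21, MUDRB and MUDR-TIRA were found for 16.8%, 10.4%, 13.7% and 24.8% of probes. With the stage and dye terms subtracted, r was 0.921 for MUDRA with MUDRA-21, 0.774 for MUDRA with MUDRB and 0.908 for MUDRA-21 with MUDRB. These values keep all 8 arrays, among them the 2 mm replicate 4 and 1 mm replicate 1 arrays. With the same terms subtracted, r of MUDR-TIRA was -0.327 with MUDRA, 0.030 with MUDRA-21 and 0.234 with MUDRB.

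The probes most like each *MuDR* probe, with stage means subtracted, carried identifiers of expressed sequences and no gene name. They were TC312512 (r = 0.868) and TC299047 (r = 0.852) for MUDR-TIRA, DR825894 (r = 0.960) and CD436402 (r = 0.952) for MUDRA, TC290470 (r = 0.914) and TC300674 (r = 0.907) for MUDRA-21, and TC290046 (r = 0.811) and TC287033 (r = 0.809) for MUDRB. These probes were picked for the highest r among all probes well above background in every sample, so the r values are not a test of likeness. Since stage was subtracted, their stage changes were not used in the choice. TC312512 changed by 0.27 (SE 0.122) and TC299047 by -0.05 (SE 0.136) between the stages, and neither was called, unlike MUDR-TIRA. Of the 8 probes, CD436402 passed the test, as 16.2% of all probes did, at 0.40 (SE 0.122, adjusted p = 0.0424 from limma). No other probe was named in the scanner output for a Mutator element or a transposon.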

How the data were processed

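RNA of both lines was hybridized in different colors on 8 Agilent maize arrays of 43451 spots. The authors' Agilent Feature Extraction 9.5.3.1 gave the intensity of each spot and its background per color, a processed signal, and a log10 ratio (Cy5 to Cy3). Normalized intensities per channel, also deposited, were used as an alternative with columns as labeled. Whether their replicate order and colors match the scanner output is not settled.

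Both copies of each array's file held the same values. Intensities were corrected by normexp (offset 50) with local background medians and normalized by loess, without control spots. Levels were further normalized between arrays by Aquantile. Stage was fitted in limma 3.58.1 (R 4.3.3) over both colors, with an intraspot correlation of 0.321, and lines on log2 ratios per stage, each with a dye term. Calls needed a Benjamini-Hochberg adjusted p under 0.05 over 41979 probes, leaving out 55 with an outlier spot. Both fits were tested on simulated data. The number of arrays limits precision.

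The named probes are the 4 members and, for each, the 2 most correlated others. The members and lists were chosen with earlier results of these data known.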

Additional observations from a re-analysis of the deposited data

Results flagged for a closer look

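Of 24 groups of 4 values tested for a value far from the others, 2 had one, and chance gives about 1 in 20. The level of MUDRA-21 in *Mu killer* replicate 2 at 1 mm was 7.90, below the other 3 samples of that group. The log2 ratio of MUDRA-21 for *Mu killer* over *Mu* active on the 2 mm replicate 4 array was 0.99, above the other 3 arrays of that stage.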

How the results depend on the processing

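Without normalization between arrays, the MUDR-TIRA stage change was 1.00 over both lines, 0.81 in *Mu killer* and 1.19 in *Mu* active, none called. MUDRA, MUDRA-21 and MUDRB then gave -0.40, -0.21 and -0.44 over both lines, MUDRA -0.31 and MUDRB -0.14 in *Mu killer*, and MUDRA-21 -0.49 in *Mu* active. Calls over all probes then fell to 4 in *Mu killer*, 1 in *Mu* active and 1 over both lines, against 4443, 2872 and 6813. The cause was not tested. Over both lines 3690 probes were called in Cy3 alone and 2698 in Cy5 alone, median centering called 2187 in *Mu killer*, and scaling to the 75th percentile 1294 in *Mu* active. Leaving out each array, the calls were 1812 to 6518 in *Mu killer*, 1222 to 3148 in *Mu* active and 4067 to 6378 over both lines. MUDR-TIRA was 1.54 in Cy3 alone, chosen after seeing the data, and not called. Scaled to the 75th percentile, which moved the median of all probes by 0.13, MUDRA was -0.19 over both lines and -0.038 in *Mu killer*. In *Mu* active MUDRA was 0.003 with offset 0, 0.016 with quantile normalization, 0.030 with median centering and 0.013 in the deposited table, against -0.003. Median centering gave line differences of -0.18 for MUDRA at 1 mm and -0.058, -0.035 and -0.27 for MUDRA, MUDRA-21 and MUDRB at 2 mm, and -0.83 for MUDR-TIRA minus MUDRA-21 (exact permutation p = 0.0469). The within-array stage difference of MUDR-TIRA from MUDRA-21 was 1.21 without normalization between arrays. Every value that changed sign was uncalled on both sides.

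Leaving out each array gave 1.43 to 1.77 for MUDR-TIRA in *Mu killer*, -0.12 to 0.22 for MUDRA-21 and -0.068 to 0.14 for MUDRA in *Mu* active, -0.026 to 0.045 for MUDRA at 1 mm and -0.046 to 0.23 for MUDRB at 2 mm between the lines. It gave -0.97 to -0.57 for the ratio of MUDR-TIRA minus that of MUDRA-21, and 1.21 to 1.65 for their stage difference, whose exact permutation p was 0.0571 without any 1 of the 2 mm arrays. Within a line, same-numbered samples of the stages correlated between -0.298 and 0.315, and differently numbered ones between -0.453 and 0.472. This cannot tell whether samples of the same number share plants, and the main fits did not pair them. With a replicate block, MUDR-TIRA over both lines was 1.72 (adjusted p = 0.00165 from limma), 10182 probes were called, and no *MuDR* call changed. The block could not be fitted to the line differences at each stage, since it holds the dye orientation.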
